A study of Arabidopsis thaliana with 4 samples.

Results

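The 37 genes described here build and pattern the Arabidopsis root. They form 3 classes: the epidermis (24 genes, of which 16 act in root hair growth and 8 in epidermal patterning), the stem cell niche and ground tissue (5 genes), and the Casparian strip of the endodermis (8 genes). They were chosen by locus from a list of known genes, which was drawn up with earlier results of these data known. A probe was taken when its annotated locus, with any version suffix removed, was on that list. All 37 had 1 probe each on the array. Of these, 35 were bright enough to be tested, among 19314 genes tested and 25665 loci with a probe.

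RNA came from whole 5 d old seedlings of the hsfb1 hsfb2b double mutant and of the wild type, both in the Col-0 (Columbia-0) ecotype of Arabidopsis thaliana. The mutated genes code for heat shock factors of class B, known as transcriptional repressors, and the mutant alleles are not given in the sources used here. Both genotypes were grown at 23 °C, shared a plate within a replicate, and had that plate kept in water at 32 °C for 30 min before harvest, so no group without heat entered the comparison. There were 4 biological replicates per the labels, with 1 two-colour array per replicate that carried the double mutant in one dye and the wild type in the other. The double mutant was in Cy3 (green) on replicates 1 and 3 and in Cy5 (red) on replicates 2 and 4.

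Root hairs grow from epidermal cells that lie over the junction of cortical cells. In the other epidermal files a complex of the MYB factor WER, the bHLH factors GL3 and EGL3 and the WD-repeat protein TTG1 switches on GL2, which blocks hair fate, while small mobile MYB proteins such as CPC oppose it. In hair cells the bHLH factors RHD6 and RSL1, and below them RSL2 and RSL4, turn on genes for wall proteins and tip growth. Deeper in the root, SHR moves from the stele into the adjoining layer and acts there with SCR to set up the endodermis, and MYB36 then switches on the CASP proteins and ESB1, which place the lignin of the Casparian strip.

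Median spot signals were 120.5 to 136 units in green and 166 to 204 in red, over local backgrounds of 46 to 47 and 56 to 56.5, no spot was saturated, and the number of arrays, 4, limits the precision. HSFB1 was 55.4-fold lower and HSFB2B 25.6-fold lower in the double mutant, with log2 ratios of double mutant over wild type of -5.79 ± 0.03 and -4.68 ± 0.07 (SE, n = 4 arrays). All 6 root markers and all 6 shoot markers listed were well above background in all 8 channels. Of 4 genes on the trichome list, GL1, MYB106 and the anthocyanin regulator PAP1 were well above background in all 8 channels and GIS2 in none. Several of the epidermal patterning genes are known to act in leaf hairs as well. Over all genes, the ratios of arrays that shared a dye orientation correlated at 0.80, and those of arrays that did not at 0.35 to 0.49. These are correlations over genes, which are not independent replicates.

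Across the 35 tested genes, 19 were higher in the double mutant, 2 were lower and 14 did not pass (limma adjusted p under 0.05, adjusted over all 19314 genes tested). That is 60.0% of the genes called, against 29.8% of all genes tested. Of all genes, 16.6% were called higher and 13.1% lower. The genes described here were chosen with earlier results of these data known, so their higher share is no independent evidence about them. Of the 5747 genes called over the whole array 55.8% were higher, a share that was 45.5% with median centring in place of loess and 79.9% with the deposited series values left uncentred. The 3 classes differed in their counts. In the epidermal class 12 of 22 tested genes rose and 0 fell (15 higher and 1 lower at an unadjusted p under 0.05). In the stem cell and ground tissue class 0 of 5 rose and 2 fell (0 and 2 at an unadjusted p under 0.05), and in the Casparian strip class 7 of 8 rose and 0 fell (7 and 0 at an unadjusted p under 0.05). All differences were small: none of the 35 genes reached a 2-fold difference, which 32 of all genes tested did. The largest was MRH6, 1.45-fold higher in the double mutant. In whole seedlings, more cells of a type and more RNA per cell cannot be told apart. General root markers were higher in the double mutant as well (4 of 6, median 0.47). A dye effect passed for 3 of these 6 markers, and their median on replicate 1 was 0.12.

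Of the 19 genes called higher, 14 passed with each array left out in turn, and 13 passed under every alternative processing that kept the pairing within arrays. When the channels were fitted separately, without that pairing, 0 of 35 genes passed by limma (15 higher and 1 lower at an unadjusted p under 0.05), and over all genes the number called dropped to 482, against 5747 in the paired fit. Feature Extraction's own processed signals gave larger values for the dim probes. The log2 ratio was more than 1.5 times as large for 8 of the 19 genes, namely RHD6 (0.59), RSL2 (0.69), RSL4 (0.54), PRP1 (0.57), PRP3 (0.65), IRE (0.76), CASP4 (0.49) and CASP5 (0.67), and within that limit for the other 11. The 8 lay at or below the 25.9th percentile of probe brightness among the genes tested. The other 11 lay at or above the 21.4th, the place of ETC1, so the groups overlapped in brightness.

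**Figure D1:**
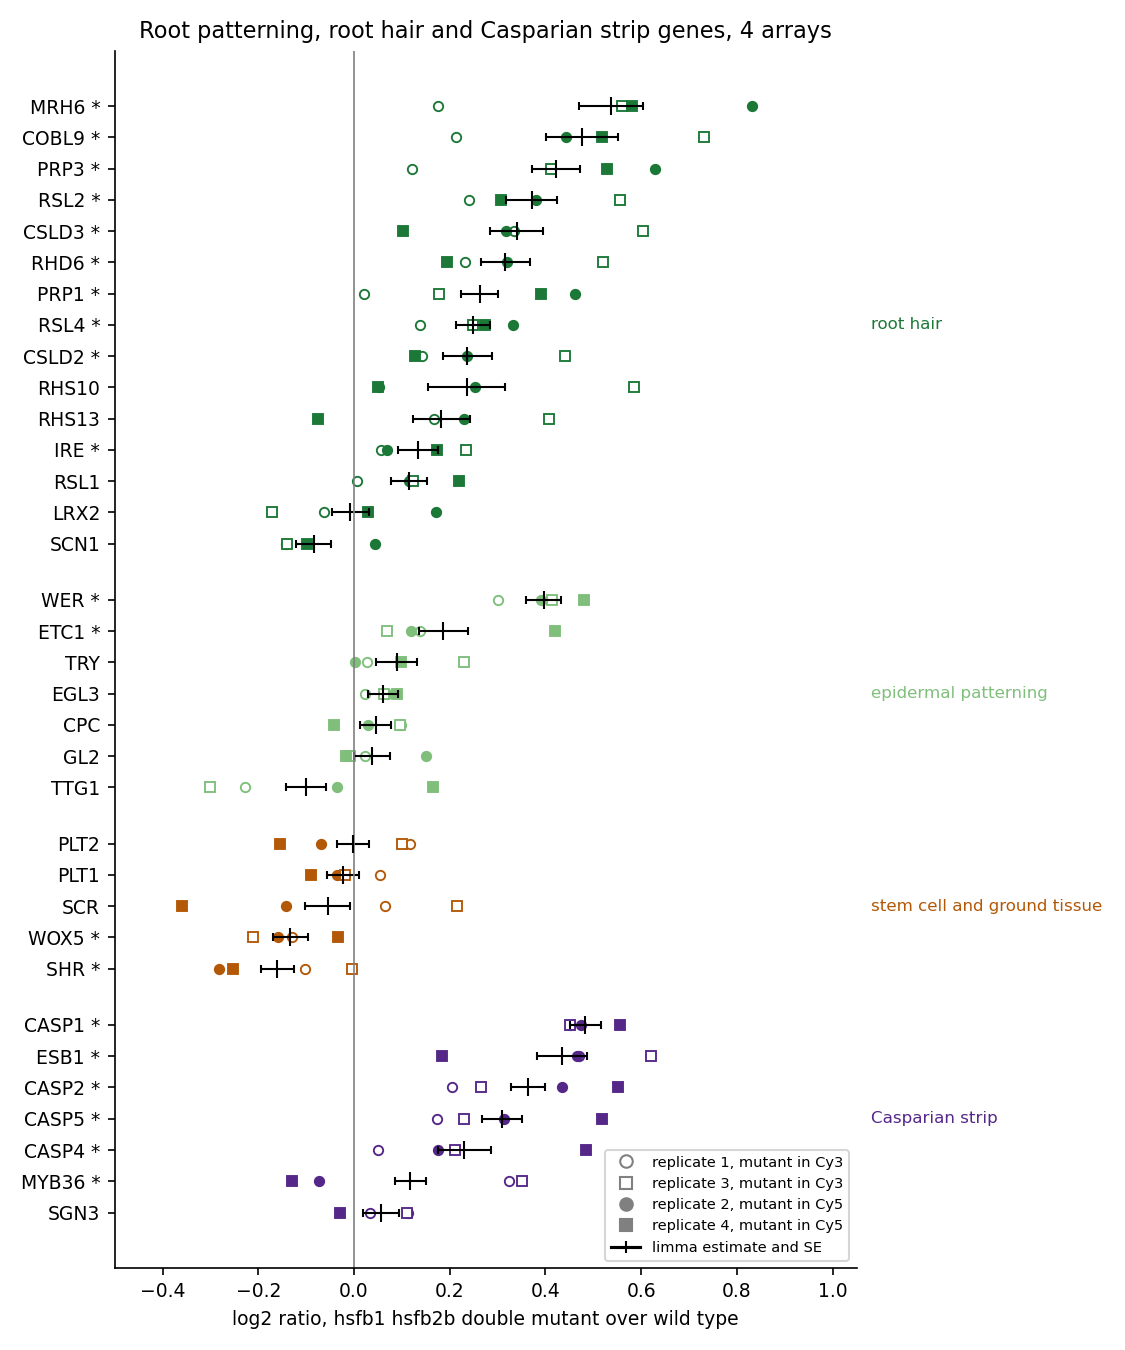
Log2 ratio of double mutant over wild type (x axis) for the tested genes reported (y axis, grouped by class), with 1 point per array, open where the double mutant was in Cy3 and filled where it was in Cy5, and the limma estimate with its standard error in black. Asterisks mark genes past the limma threshold. The root hair and Casparian strip groups lie mostly right of 0, with estimates up to 0.54 for MRH6. Estimates of the stem cell and ground tissue genes lie at or left of 0, down to -0.16 for SHR, though single arrays of SCR, PLT1 and PLT2 lie right of it.

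Root hair genes made up most of the epidermal response, with 10 of 15 tested genes higher and 0 lower in the double mutant (13 and 0 at an unadjusted p under 0.05). The transcription factors come first. RHD6 (AT1G66470), which starts hair development, gave log2 ratios of 0.23, 0.32, 0.52 and 0.19 on replicates 1 to 4, with an estimate of 0.32 ± 0.05 (SE, n = 4 arrays, limma adjusted p = 0.00422). Its signal averaged 412 ± 45.8 units in the double mutant and 331 ± 37.4 in the wild type (SD, n = 4 each). The double mutant was the brighter channel on every array, although the signals of the 2 genotypes overlapped across arrays.

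RSL2 (AT4G33880), which acts downstream of RHD6 in hair elongation, had signals of 413, 510.4, 472 and 392 units in the double mutant and 349.8, 391.9, 321 and 317 in the wild type on replicates 1 to 4. Every double mutant value lay above every wild-type value, though the lowest double mutant and the highest wild-type value nearly met. The log2 ratio was 0.37 ± 0.05 (limma adjusted p = 0.00238). RSL4 (AT1G27740), the factor that sets final hair length, had signals of 338, 399, 343 and 325 in the double mutant and 308, 317, 289 and 269 in the wild type, also without overlap, and a ratio of 0.25 ± 0.04 (limma adjusted p = 0.00239). RSL1 (AT5G37800), the partner of RHD6, had ratios from 0.0057 to 0.22 and an estimate of 0.12 ± 0.04 that did not pass (limma adjusted p = 0.0529). Its value depended on the processing: with the processed signals it was 0.62 and passed (adjusted p = 0.0112), as it did with the deposited series values (0.70 uncentred and 0.61 centred), without background correction (0.12, adjusted p = 0.0458) and without replicate 2 (0.14, adjusted p = 0.0275). Of these 4 factors, 3 thus rose, by 0.25 to 0.37 on the log2 scale. RSL3 and RSL5, which are not among the genes described here, were not bright enough to be tested.

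Of the other hair genes, MRH6 and COBL9 had the highest estimates. MRH6 (AT2G03720), a gene needed for normal hair shape, had signals of 591, 999, 820 and 721 units in the double mutant and 523, 561, 556 and 482 in the wild type. The genotypes did not overlap, and replicate 1, with a ratio of 0.18, stood below the other arrays at 0.56 to 0.83. The estimate was 0.54 ± 0.07 (limma adjusted p = 0.00142). COBL9 (AT5G49270), a COBRA-like protein of the growing hair, had 830.0, 881, 932 and 719 units in the double mutant and 716, 648, 561 and 503 in the wild type, and a ratio of 0.48 ± 0.07 (limma adjusted p = 0.00363). Again no wild-type value reached the lowest double mutant value.

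The proline-rich wall proteins PRP1 (AT1G54970) and PRP3 (AT3G62680) both rose, by 0.26 ± 0.04 and 0.42 ± 0.05 (SE, limma adjusted p = 0.00273 and 0.00119). Their ratios were uneven over the arrays. PRP1 had 0.02, 0.46, 0.18 and 0.39 on replicates 1 to 4, and PRP3 had 0.12, 0.63, 0.41 and 0.53, so that the arrays with the double mutant in Cy5 were higher in both genes. For PRP1 the gene-wise dye effect itself passed the threshold, and the call was lost (0.26, adjusted p = 0.0878) when the dye term was left out. Neither cellulose synthase-like gene shows that pattern. CSLD3 (AT3G03050), needed for an intact hair wall, had ratios of 0.33, 0.32, 0.60 and 0.10 and an estimate of 0.34 ± 0.05 (limma adjusted p = 0.00404). CSLD2 (AT5G16910) had 0.14, 0.24, 0.44 and 0.13 and an estimate of 0.24 ± 0.05 (limma adjusted p = 0.0136), which was 0.16 with an adjusted p of 0.0799 without replicate 3. The CSLD2 call was also lost with median centring (0.15, adjusted p = 0.235), with the processed signals (0.20, 0.067), with the series values centred (0.20, 0.0658) and without the dye term (0.24, 0.0625).

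IRE (AT5G62310), an AGC kinase of tip growth, was higher by 0.13 ± 0.04 (limma adjusted p = 0.0453). It entered the test only through its double mutant channels, being well above background in 3 of 4 wild-type channels, and it did not pass without replicate 3 (0.09, adjusted p = 0.270) or replicate 4 (0.11, adjusted p = 0.113), nor with median centring (0.382), a normexp offset of 0 (0.0565), no dye term (0.142) or no brightness filter (0.0534). Its place in the counts above is therefore no support for them, and with all 8 channels required 18 of 34 genes rose, 11 of them among 21 epidermal genes. The remaining hair genes did not pass, though 3 of them did under at least 1 other setting. RHS13 (AT4G02270) had 0.18 ± 0.06 (limma adjusted p = 0.0542), with -0.08 on replicate 4 against 0.17 to 0.41 on the others. It was 0.26 and passed without replicate 4 (adjusted p = 0.00148) and was 0.11 without replicate 2 (adjusted p = 0.131), and it also passed without background correction (0.19) and with the series values uncentred (0.32). The receptor-like kinase gene RHS10 (AT1G70460) had 0.24 ± 0.08 (limma adjusted p = 0.0631), and on replicate 1 its signals, 109 in the double mutant and 105 in the wild type, were far below those of the other arrays (338 to 416 in the double mutant and 277 to 359 in the wild type). Without replicate 1 the RHS10 ratio was 0.37 and passed (adjusted p = 0.00908), and it passed as well without replicate 4 (0.29), with median centring (0.28), without background correction (0.35), with the processed signals (0.64) and with the series values uncentred (0.72) and centred (0.63). SCN1 (AT3G07880), a RhoGDI that confines hair outgrowth to one site, had -0.08 ± 0.04 (limma adjusted p = 0.121), and passed as lower without replicate 2 (-0.12, adjusted p = 0.0491). The leucine-rich repeat extensin gene LRX2 (AT1G62440) had -0.01 ± 0.04. Its paralogue LRX1 (AT1G12040) was well above background in only 3 of 4 channels of each genotype and was not tested; its ratios lay between -0.09 and 0.06.

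**Figure D2:**
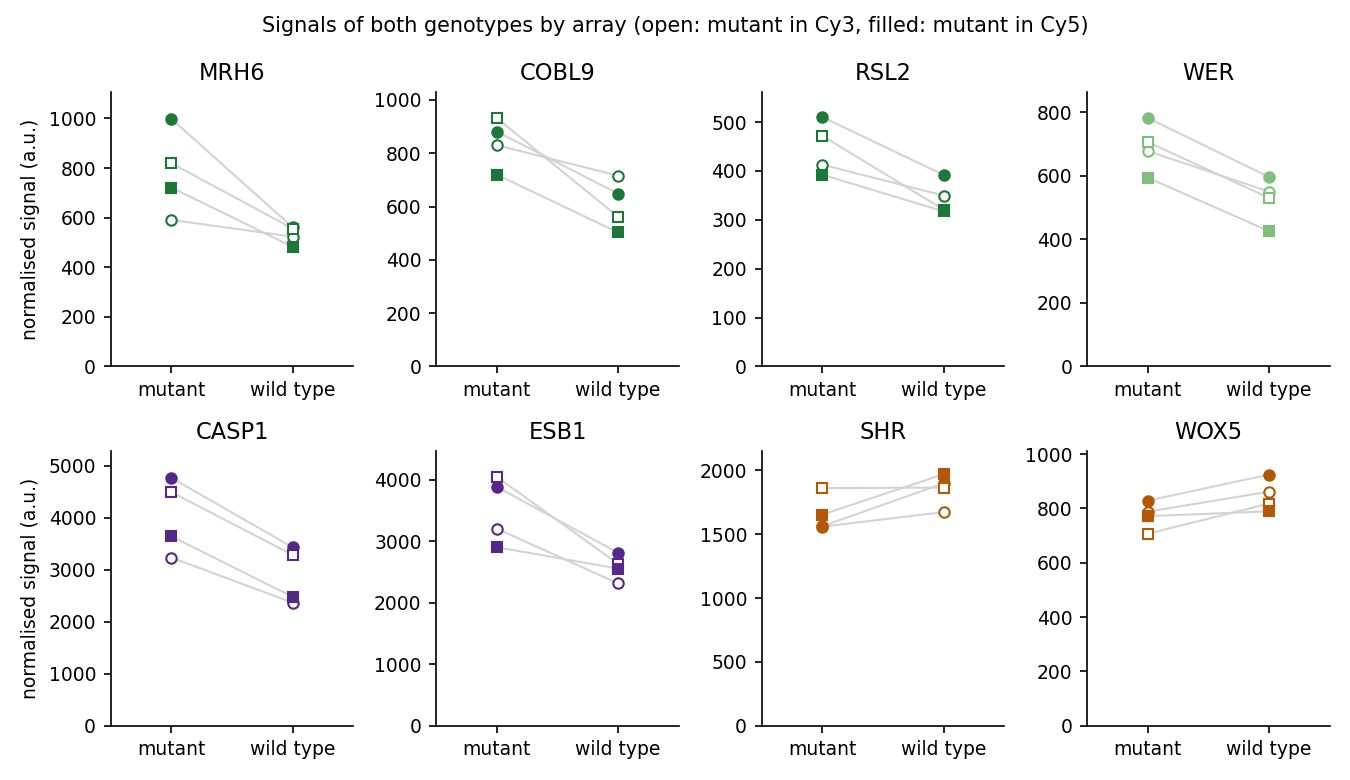
Normalised signals in arbitrary units (y axis, from 0) of 8 genes in the double mutant (left) and the wild type (right), with a line joining the 2 channels of each array and filled points where the double mutant was in Cy5. The lines run down to the wild type for the root hair genes MRH6, COBL9 and RSL2, for WER and for CASP1 and ESB1, whose double mutant means were 4037 and 3509.8 units, and up to it for SHR and WOX5.

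Of the 7 epidermal patterning genes tested, 2 rose and 0 fell in the double mutant (2 and 1 at an unadjusted p under 0.05). That is 28.6% called, close to the 29.8% of all genes tested. WER (AT5G14750), the MYB factor of non-hair cells, rose. It had signals of 677, 781, 706 and 594 units in the double mutant and 549.9, 596, 529.8 and 425 in the wild type, and was higher by 0.40 ± 0.04 on the log2 scale (limma adjusted p = 0.000396). The double mutant was the brighter channel on every array, with ratios between 0.30 and 0.48, while signals of the 2 genotypes overlapped across arrays only through the dimmest double mutant and the brightest wild-type value. ETC1 (AT1G01380), a small MYB that promotes hair fate alongside CPC, had 0.14, 0.12, 0.07 and 0.42 and an estimate of 0.19 ± 0.05 (limma adjusted p = 0.0298), which did not pass without replicate 1, 3 or 4 (0.17, 0.20 and 0.11), with median centring (adjusted p = 0.115), with the processed signals (0.0689), with the series values centred (0.108) or without the dye term (0.134).

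The other patterning genes gave small values that did not pass. GL2 (AT1G79840), the direct output of the WER complex, had signals of 1253 ± 89.4 units in the double mutant and 1223 ± 114 in the wild type (SD, n = 4 each), and a log2 ratio of 0.04 with a 95% interval of -0.05 to 0.13. CPC (AT2G46410) had 0.05 ± 0.03 and TRY (AT5G53200), another small MYB, 0.09 ± 0.04. EGL3 (AT1G63650) had 0.06 ± 0.03 and was above 0 on all 4 arrays. TTG1 (AT5G24520) had -0.10 ± 0.04 (limma adjusted p = 0.111; -0.15 and 0.0205 without replicate 4), but with ratios of -0.23, -0.03, -0.30 and 0.16 that followed the dye orientation, and a dye effect that passed the threshold. GL3 (AT5G41315) was well above background in 3 of 4 channels of each genotype and was not tested. WER thus rose while the tested partners of its complex, EGL3 and TTG1, and its target GL2 did not pass; whether WER differed from them was not tested.

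Stem cell and ground tissue regulators were the only one of the 3 classes with genes called lower and none called higher. SHR (AT4G37650), the mobile GRAS factor of the stele, had signals of 1559.7, 1563, 1861 and 1654 units in the double mutant and 1674, 1899, 1866 and 1971 in the wild type. The difference was small and the genotypes overlapped. Its log2 ratios were -0.10, -0.28, -0.0038 and -0.25, and it fell by 0.16 ± 0.03 on the log2 scale (limma adjusted p = 0.0122). WOX5 (AT3G11260), the homeodomain factor of the quiescent centre, had 788, 828, 706 and 771 units in the double mutant and 861, 925, 818 and 789 in the wild type, and fell by 0.13 ± 0.04 on the log2 scale (limma adjusted p = 0.0320). Both genes were lower in the double mutant on all 4 arrays, as 16.5% of all genes tested were. Neither call held with each array left out in turn: SHR did not pass without replicate 1 (-0.14, adjusted p = 0.0826), nor WOX5 without replicate 1, 2 or 3 (-0.15 to -0.10, adjusted p from 0.0791 to 0.190). Both calls were also lost with median centring in place of loess (adjusted p = 0.0616 for SHR and 0.214 for WOX5) and without the dye term (0.146 and 0.130), and with the series values uncentred (0.191 and 0.107) and centred (0.124 and 0.0910), and SHR's also with the processed signals (0.0532).

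SCR (AT3G54220), the partner of SHR, showed the dye orientation more than the genotype. Its ratios were 0.06 and 0.22 with the double mutant in Cy3 and -0.14 and -0.36 with it in Cy5, with an estimate of -0.06 ± 0.05 (limma adjusted p = 0.406) and a dye effect past the threshold. The AP2-domain factors PLT1 (AT3G20840) and PLT2 (AT1G51190), which maintain the root meristem, had -0.02 ± 0.03 and -0.0016 ± 0.03. Their 95% intervals were -0.10 to 0.06 and -0.08 to 0.08. Both probes were dim, and a background offset can draw the ratios of dim probes towards 0. With a normexp offset of 0, PLT1 and PLT2 had -0.04 and -0.01, and neither passed. The sign of both values turned under other processing.

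The Casparian strip genes had the highest share of calls. CASP1 (AT2G36100), a membrane scaffold protein of the strip, had signals of 3236, 4770.0, 4494 and 3646 units in the double mutant and 2367, 3432, 3287 and 2479.5 in the wild type. Arrays differed in overall brightness for this gene, so the genotypes overlapped across arrays, but within each array the double mutant was brighter by nearly the same ratio, 0.45 to 0.56. The estimate was 0.48 ± 0.03, a 1.40-fold difference (limma adjusted p = 0.000132).

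CASP2, CASP4 and CASP5, further scaffold proteins of the strip, rose by 0.23 to 0.36 on the log2 scale. CASP2 (AT3G11550) had ratios of 0.21, 0.44, 0.26 and 0.55 and an estimate of 0.36 ± 0.04 (limma adjusted p = 0.000498), with signals of 606 ± 67.9 units in the double mutant and 473 ± 71.6 in the wild type (SD, n = 4 each) that did not overlap. CASP5 (AT5G15290) had 0.17, 0.31, 0.23 and 0.52 and an estimate of 0.31 ± 0.04 (limma adjusted p = 0.00193), also without overlap of signals. CASP4 (AT5G06200) had 0.05, 0.18, 0.21 and 0.48 and an estimate of 0.23 ± 0.05 (limma adjusted p = 0.0188), which did not pass without replicate 3 (0.19, adjusted p = 0.133) or without the dye term (adjusted p = 0.101). In these 3 genes the highest ratio was on replicate 4. CASP genes, like the PRP, CSLD and small MYB genes here, belong to families of similar sequence, and whether their probes share signal was not tested.

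ESB1 (AT2G28670), a dirigent-domain protein needed to organise the strip, had 3204, 3885, 4047 and 2903 units in the double mutant and 2314, 2811, 2632 and 2555 in the wild type. The genotypes did not overlap, and the ratio was 0.44 ± 0.05 (limma adjusted p = 0.00117), with 0.18 on replicate 4 against 0.47 to 0.62 on the others. MYB36 (AT5G57620), the factor that activates the CASP genes and ESB1, passed with a smaller value of 0.12 ± 0.03 (limma adjusted p = 0.0305). Its ratios split by dye, 0.32 and 0.35 with the double mutant in Cy3 and -0.07 and -0.13 with it in Cy5, with a dye effect of -0.22 (limma adjusted p = 0.00971), and the call was lost without replicate 1, 2 or 3, without the dye term, with median centring and with the series values centred (adjusted p from 0.0830 to 0.600). SGN3 (AT4G20140), the receptor kinase that monitors the strip, had 0.06 ± 0.04 (limma adjusted p = 0.295), with signals of 711 ± 25.3 units in the double mutant and 685 ± 53.6 in the wild type (SD, n = 4 each).

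Set side by side, the class medians of the log2 ratio were 0.21 in the epidermal class, -0.06 in the stem cell and ground tissue class and 0.34 in the Casparian strip class, against 0.00065 over all genes tested. Within the epidermal class the root hair genes had a median of 0.25 and the patterning genes 0.06. The order held on each array. The Casparian strip median exceeded the stem cell and ground tissue median by 0.21, 0.52, 0.31 and 0.66 on replicates 1 to 4, and the epidermal median by 0.16, 0.14, 0.07 and 0.33. The epidermal median exceeded that of the stem cell and ground tissue genes by 0.06, 0.38, 0.24 and 0.32. The Casparian strip and root hair medians did not keep one order, with differences of 0.13, 0.06, -0.10 and 0.31. With Feature Extraction's processed signals the root hair median was 0.59 and the Casparian strip median 0.49, the reverse of their order in the main fit. These are descriptions of 5 to 22 genes per class, with no test of the classes.

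**Figure D3:**
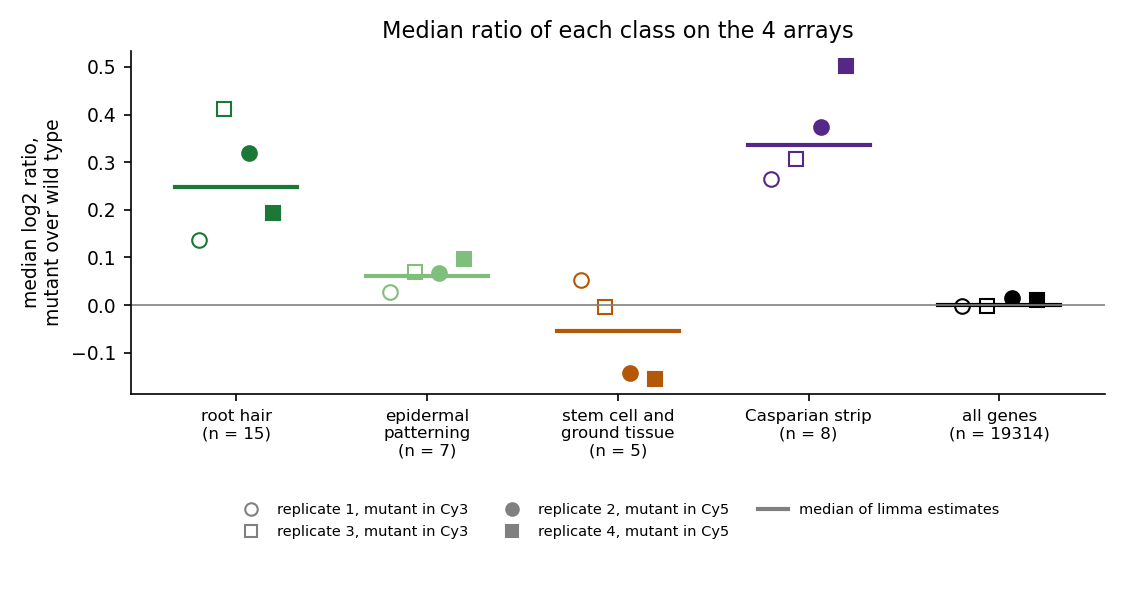
Median log2 ratio of double mutant over wild type (y axis) of each class and of all genes tested (x axis), with 1 point per array and a bar at the median of the limma estimates. Points of the Casparian strip genes lie between 0.26 and 0.50 and those of the root hair genes between 0.14 and 0.41, while the stem cell and ground tissue genes lie on both sides of 0, above it only on replicate 1.

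The direction held on single arrays for most genes called. Of the 35 genes tested, 22 had a ratio above 0 on every array, against 19.2% of all genes tested, and 2 had one below 0 on every array. These 22 include 18 of the 19 genes called higher, with MYB36 the exception, and 4 that did not pass (RSL1, RHS10, TRY and EGL3). Signals of the 2 genotypes did not overlap at all for 9 of 35 genes, against 9.88% of all genes tested: RSL2, RSL4, COBL9, CSLD3, IRE, MRH6, CASP2, CASP5 and ESB1. IRE is no support here, since it was tested only through its double mutant channels. A dye effect passed for 5 of 35 (PRP1, TTG1, SCR, CASP2 and MYB36), or 14.3%, against 18.1% of all genes tested. Orientation means of opposite sign were found for 7 genes (LRX2, CPC, TTG1, SCR, PLT1, PLT2 and MYB36), of which MYB36 was the only one called.

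**Figure D4:**
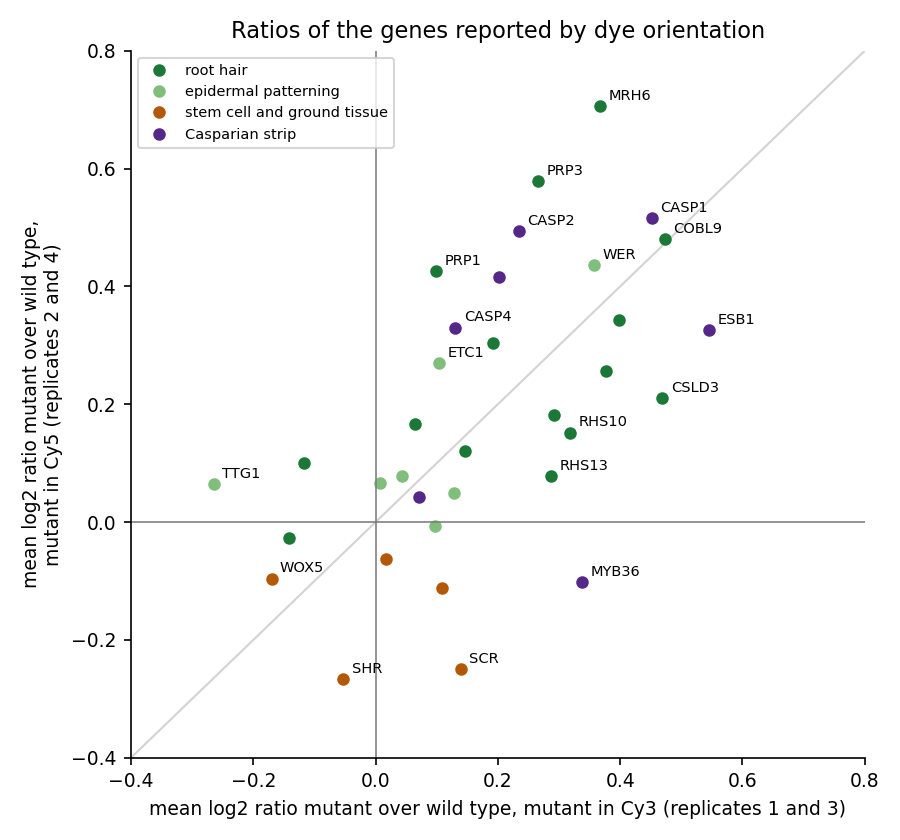
Mean log2 ratio of double mutant over wild type with the double mutant in Cy5 (y axis, replicates 2 and 4) against the same with it in Cy3 (x axis, replicates 1 and 3), 1 point per gene reported, with the line of equality. Most root hair and Casparian strip genes lie in the upper right, above 0 in both orientations, while MYB36 (0.34 in Cy3, -0.10 in Cy5) and SCR (0.14 in Cy3, -0.25 in Cy5) lie in the lower right.

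Further genes of the same processes were taken from the same fit. They were listed from general knowledge, but with earlier results of these data known, so they are no independent support for the counts above. Over all genes tested, 16.6% were called higher and 13.1% lower. Of 16 other root hair genes tested (20 listed), 11 (68.8%) rose and 0 fell in the double mutant (11 and 0 at an unadjusted p under 0.05), with a median of 0.30. RHS19, a peroxidase gene, was higher by 0.55 ± 0.08 (limma adjusted p = 0.00257), the expansin gene EXPA7 by 0.52 ± 0.07 (0.00159) and the arabinogalactan protein gene AGP3 by 0.47 ± 0.10 (0.0131), although AGP3 had -0.22 on replicate 4. Of 5 other epidermal patterning genes, JKD, a zinc finger factor of the ground tissue that influences epidermal fate, rose by 0.14 ± 0.03 (limma adjusted p = 0.0201). MYB23, a close relative of WER, fell by 0.15 ± 0.03 (limma adjusted p = 0.0162), opposite in sign to WER itself.

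Of 12 other stem cell and ground tissue genes tested (15 listed), 3 rose and 2 fell, with a median of -0.02. That is 25% higher and 16.7% lower, against 16.6% and 13.1% of all genes tested. The gene furthest from 0 was UPB1, a bHLH factor that represses peroxidase genes at the edge of the meristem, higher by 0.59 ± 0.04 in the double mutant (limma adjusted p = 0.000119). RGI2, a receptor of meristem peptides, rose by 0.14 ± 0.03 and the zinc finger gene NUC by 0.12 ± 0.03, while the related receptor RGI3 fell by 0.18 ± 0.05 and the D-type cyclin CYCD6;1, which drives ground tissue divisions, by 0.12 ± 0.03 (limma adjusted p from 0.0233 to 0.0373). Of 14 other Casparian strip and suberin genes tested (15 listed), 11 (78.6%) rose and 0 fell (11 and 0 at an unadjusted p under 0.05), with a median of 0.23. Suberin, the wax-like polymer laid down in the endodermis after the strip, was represented by the fatty acid hydroxylase CYP86A1 (0.61 ± 0.03, limma adjusted p = 6.87e-05) and the reductase FAR4 (0.51 ± 0.04, limma adjusted p = 0.000214). The strip peroxidase PER64 was higher by 0.36 ± 0.04 (limma adjusted p = 0.000593). Its ratios were 0.12, 0.57, 0.24 and 0.50 on replicates 1 to 4, higher with the double mutant in Cy5, and its dye effect passed the threshold (limma adjusted p = 0.0190).

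Of 6 general root markers, 4 rose and 0 fell (5 and 0 at an unadjusted p under 0.05), with a median of 0.47. Over all genes tested, 16.6% were called higher and 13.1% lower. The markers called were PYK10, BGLU22, MLP328 and PER27, and MLP328 had -0.20 on replicate 1 against 0.96 to 1.52 on the others. The summed signal of the 5 root markers with a value on every array ranged over 71897 to 84596 units in the double mutant and 49512 to 77365 in the wild type, and was higher in the double mutant on 4 of 4 arrays. PYK10 alone gave 44292 to 58480 and 29136 to 51133 of these units. On replicate 1, MLP328 and MLP329 had ratios of -0.20 and -0.03, and BGLU22 and PER27 had 0.52 and 0.41. A dye effect passed for 3 of the 6 root markers (PYK10, MLP328 and MLP329). Of 6 vascular markers, 0 rose and SUC2 fell by 0.17 (0 and 1 at an unadjusted p under 0.05), with a median of -0.02. Sums were 16287 to 17447 units in the double mutant and 17926 to 18812 in the wild type. SUC2 alone gave 9768 to 11410 and 11603 to 12413 of these units. Veins of root and shoot cannot be told apart in whole-seedling RNA, so these values do not show root vascular content. None of the 3 genes tested from the trichome list (GL1, MYB106 and PAP1) passed (0 and 1 at an unadjusted p under 0.05). Their sums were 1282 to 1499 units in the double mutant and 1359 to 1537 in the wild type. PAP1 is known as an anthocyanin regulator, so its part of the sums does not stand for trichomes. Of 6 shoot markers 1 rose and 3 fell, but their array medians were -0.47, 0.34, -0.27 and 0.09 on replicates 1 to 4, and the sums were 536626 to 786296 units in the double mutant and 576080 to 911117 in the wild type. The part of root or shoot content in the results above was not tested.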

How the data were processed

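Scanner files of 4 two-colour Agilent arrays were used. Per the submitters' processing notes they were made with Agilent Feature Extraction 9.1.3.1. Spot and background values are intensity values, which the authors deposited unnormalized. Per the file headers, the processed signals are intensity values after background subtraction and dye normalization. The log10 ratio of red over green comes from those signals, per the file headers. The series table that the authors deposited holds the natural log of double mutant over wild type, as read from slopes of 0.998 to 1.0 and correlations of 0.987 to 0.999 with the scanner ratios of the same array. No source used here states how they were centred, and the column medians were 0.0458, 0.0813, 0.107 and -0.0011. No source used here names a genome build either, so no coordinates are printed. Per the file headers, all arrays carried 1 slide barcode and 1 scan date, which leaves no batch to test.

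Median signals were corrected with normexp at an offset of 50, and ratios were normalized by loess within arrays, giving control spots and marked outliers (190 to 399 of 37685 spots per array) weight 0; the outliers were then left out. Probes were kept if they were well above background in all 4 channels of either genotype and had at least 3 ratios. Each gene was then tested through the brightest of its kept probes. RefSeq (TAIR10.1) matched 19217 of the 19314 genes. Signals given per genotype were scaled between arrays by Aquantile. The log2 ratios were fitted with limma 3.58.1 in R 4.3.3, including a dye term per gene, eBayes and two-sided Benjamini-Hochberg adjustment over all genes at 0.05. Errors on ratios are standard errors of this fit, which was tested on simulated data. The simulated noise was drawn independently for each gene and array under the fit's own model. That test therefore cannot check the errors against the real arrays. The pairing comes from the array, which held both genotypes of 1 plate per the labels.

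Members and lists were chosen with earlier results of these data known. The values of 1 member are not reported here, though it stays in the counts and medians; all other members are named, and of each other list up to 3 genes past the threshold in each direction with the largest absolute log2 ratio; root markers past the threshold are named with their list. Alternatives covered normalization, background, signal, dye term, filters, probes, pairing and each array left out.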

Additional observations from a re-analysis of the deposited data

How the results depend on the processing

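Of 559 recomputed values of single members, 467 kept their direction and their side of the threshold, 61 lost the call, 18 gained one and 13 changed sign. The number of genes called, 5747 of all genes tested, was 2547 with median centring, 3616 with the deposited series values centred, 1826 without the dye term and 482 with separate channels and no replicate block; leaving out 1 array gave 2194 (without replicate 3) to 5811 (without replicate 2). The number of members called higher, 19, was 0 in the separate channels without the replicate block and 13 to 23 elsewhere, with 14 to 19 when 1 array was left out. The number called lower, 2, was 1 with Feature Extraction's processed signals, 0 with median centring, with the series values uncentred or centred, without the dye term and in the separate channels, and 0 to 3 when 1 array was left out. The epidermal median, 0.21, was 0.43 with the processed signals, 0.51 and 0.43 with the series values uncentred and centred, and 0.14 to 0.26 when 1 array was left out. The Casparian strip median, 0.34, was 0.49, 0.57 and 0.48 in those 3 settings and 0.30 to 0.36 when 1 array was left out. The root hair median, 0.25 in the main fit, was 0.59, 0.68 and 0.59 in the same 3 settings, above the Casparian strip median in each. The stem cell and ground tissue median, -0.06, was -0.12 with median centring, 0.0034 with the series values uncentred, and -0.10 (without replicate 2) to -0.0091 (without replicate 4) when 1 array was left out.

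Every change of sign was in a gene that did not pass. GL2 was -0.0049 with median centring, and -0.0046 (without replicate 2) to 0.0791 when 1 array was left out. PLT2 was 0.0063 with median centring, 0.0034 with the series values uncentred, and -0.0227 to 0.0195 when 1 array was left out, above 0 without replicate 3 or 4. PLT1 was 0.0111 without background correction, 0.11 with the processed signals, and 0.19 and 0.11 with the series values uncentred and centred. SCR was 0.0433 with the series values uncentred, and LRX2 was -0.0435 to 0.0273 when 1 array was left out, above 0 without replicate 3 or 4. The calls lost with 1 array left out were those of CASP4, CSLD2, ETC1, IRE and MYB36 among the 19 higher and of SHR and WOX5 among the 2 lower. The calls gained were those of RHS10 (7 settings), RSL1 (5) and RHS13 (3), with EGL3 higher with the series values uncentred, SCN1 lower without replicate 2 (-0.12) and TTG1 lower without replicate 4 (-0.15). Without the dye term PRP1, CSLD2, IRE, ETC1, CASP4 and MYB36 did not pass. The cause of these changes was not tested. Small classes, whole-seedling RNA, 4 arrays with uneven dye effects and dim probes (LRX1 and GL3 were not tested) limit what can be read from them.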
